A study of Mus musculus with 20 samples.

Results

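Hippo pathway factors and targets of YAP were examined in livers of *IMP2-2* tg (transgenic) and wt (wildtype) mice. The members were 9 of 18194 genes with a probe set of their own: the kinases *Lats1* and *Lats2*, the effectors *Yap1* and *Wwtr1*, the DNA-binding partner *Tead1*, and the targets *Ctgf* (now *Ccn2*), *Cyr61* (now *Ccn1*), *Ankrd1* and *Amotl2*. They were chosen by name, and all 23 probe sets annotated to one of them alone were read. 1 further probe set is shared by *Xpo4* and *Lats2* and was left out. By the labels, the 10 tg mice carried a liver-specific transgene for p62/IMP2-2, an mRNA binding protein of the IGF2BP2 gene, and the 10 wt mice were the corresponding controls. All were 5 weeks old, untreated and of the C57Bl6J/DBA2 background, and each liver was read on 1 Affymetrix mouse genome array. The promoter of the transgene and the sex of each mouse are not given in the sources used here. Values are log2 RMA values, and 4.53 was the median of all probe set means, so a probe set under it has a weak signal.

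In the Hippo pathway, a chain of kinases ends with LATS1 and LATS2, which phosphorylate the coactivators YAP and TAZ (the product of *Wwtr1*) and keep them out of the nucleus. Unphosphorylated YAP and TAZ bind TEAD factors and switch on genes such as *Ctgf*, *Cyr61*, *Ankrd1* and *Amotl2*. In mouse liver, active YAP is known to push hepatocytes toward a progenitor-like state. The control lies largely in phosphorylation, which arrays of RNA do not measure, so RNAs of such targets are the usual readout of YAP activity.

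The TEAD motif was looked up in the promoters of the members, since it is the shared element through which YAP acts. The letters searched were GGAATG, on the other strand CATTCC, in RefSeq promoters of GRCm38.p6 that cover 250 bases before and 50 bases after a start site. 7 of the 9 genes had an entry, and 6 of these 7 genes held the letters in at least 1 promoter, where 16.6% of all genes in the table did. *Ctgf* and *Tead1* had no entry. The bases before the start are shown for the targets with an entry and for *Wwtr1*, whose RNA followed *Tead1* most closely in wt livers, with the match in capitals. *Cyr61* (chr3:145649986-145650235, minus strand) held 1 match 103 bases before the start, *Ankrd1* (chr19:36119845-36120094, minus strand) held 2 at 210 and 123 bases, *Amotl2* (chr9:102717554-102717803, plus strand) held 1 at 65 bases, and *Wwtr1* (chr3:57575911-57576160, minus strand) held 1 at 136 bases.
Cyr61: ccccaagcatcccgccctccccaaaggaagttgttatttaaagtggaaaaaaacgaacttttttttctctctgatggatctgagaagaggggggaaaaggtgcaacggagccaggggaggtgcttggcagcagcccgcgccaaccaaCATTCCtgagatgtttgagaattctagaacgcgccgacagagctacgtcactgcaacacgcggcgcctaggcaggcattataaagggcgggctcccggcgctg
Ankrd1: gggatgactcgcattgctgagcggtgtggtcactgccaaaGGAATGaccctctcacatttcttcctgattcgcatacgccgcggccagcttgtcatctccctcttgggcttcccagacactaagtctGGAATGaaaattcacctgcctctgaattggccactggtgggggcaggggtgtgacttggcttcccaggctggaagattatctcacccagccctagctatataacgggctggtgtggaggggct
Amotl2: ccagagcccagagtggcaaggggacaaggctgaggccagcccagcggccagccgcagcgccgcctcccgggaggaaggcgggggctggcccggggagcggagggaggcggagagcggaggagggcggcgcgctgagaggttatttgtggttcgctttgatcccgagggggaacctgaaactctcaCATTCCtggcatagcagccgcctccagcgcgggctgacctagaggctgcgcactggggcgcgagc
Wwtr1: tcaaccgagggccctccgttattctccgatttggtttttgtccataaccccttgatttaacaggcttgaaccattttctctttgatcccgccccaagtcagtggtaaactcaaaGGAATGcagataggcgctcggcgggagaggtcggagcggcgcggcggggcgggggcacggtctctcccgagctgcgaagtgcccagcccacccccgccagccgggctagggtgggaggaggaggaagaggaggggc
The *Yap1* promoter held 1 match 141 bases before the start, *Lats2* held 1 match that begins at base 5 after a start, and *Lats1* held none. A match is a string of letters and not a measured binding site. In the same build the genes whose promoters are not shown were placed as follows, *Lats1* at chr10:7681200-7716461, *Lats2* at chr14:57689662-57746212, *Yap1* at chr9:7931999-8004638, *Tead1* at chr7:112679356-112906784 and *Ctgf* at chr10:24595442-24598683.

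Before the results, arrays that bear on them are named. 2 pairs of wt arrays were nearly identical, wt_1407_2 with wt_1420_6 and wt_1407_5 with wt_1420_7, and each pair was counted as 1 profile in means and SDs (n = 8), while the limma fit kept all 20 arrays. The array tg_1386_9 lay closest to wt_1386_4, with less difference between them than within either wt pair. In the progenitor markers wt_1386_4 had a mean of 6.51, where the other wt arrays reached 5.47 at most. Whether these are repeats of one RNA or exchanged labels was not tested, and both kept their labels. Without both arrays, 0 of the 23 probe sets of the 9 genes and 1693 of all probe sets passed between genotypes. 3 tg arrays, tg_1423_2-8_1, tg_1423_2-8_4 and tg_1420_4, differed from the rest: the mean of the progenitor markers *Sox9*, *Cdh1*, *Afp*, *Prom1*, *Bex1* and *Epcam* was 8.34 to 8.87 in them, 5.89 to 7.66 in the other 7 tg arrays and 4.92 to 6.51 in wt arrays. The mean of 6 hepatocyte markers was 12.98 to 13.31 in tg and 12.96 to 13.27 in wt arrays, as the label liver implies. Nothing in the labels says that mice were littermates or from separate litters, so p values measure the spread between these arrays.

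None of the 23 probe sets of the 9 genes differed between IMP2-2 tg and wt livers in limma after adjustment over all 45101 probe sets. The background in this fit was 2.55%, or 1149 probe sets, of which 850 were higher and 299 lower in tg livers. With near-identical wt arrays averaged, 0 of the 23 passed, against 0.612% of all probe sets. At an unadjusted p under 0.05, 5 of the 23 passed, against 20.4% of all probe sets. With the number shared by sample names in the fit, 1 of 23 passed, against a background of 4.97%. Tg and wt arrays overlapped in every one of the 23, while 0.0798% of all probe sets had groups without overlap. Among the 9 genes, read by 1 probe set each, 8 had a positive log2 difference, with a median of 0.17. Of all 18194 genes 7790 had a positive one, with a median of -0.02. Over all 23 probe sets only 13 were positive, with a median of 0.02, against 18024 of all 45101 with a median of -0.03.

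**Figure D1:**
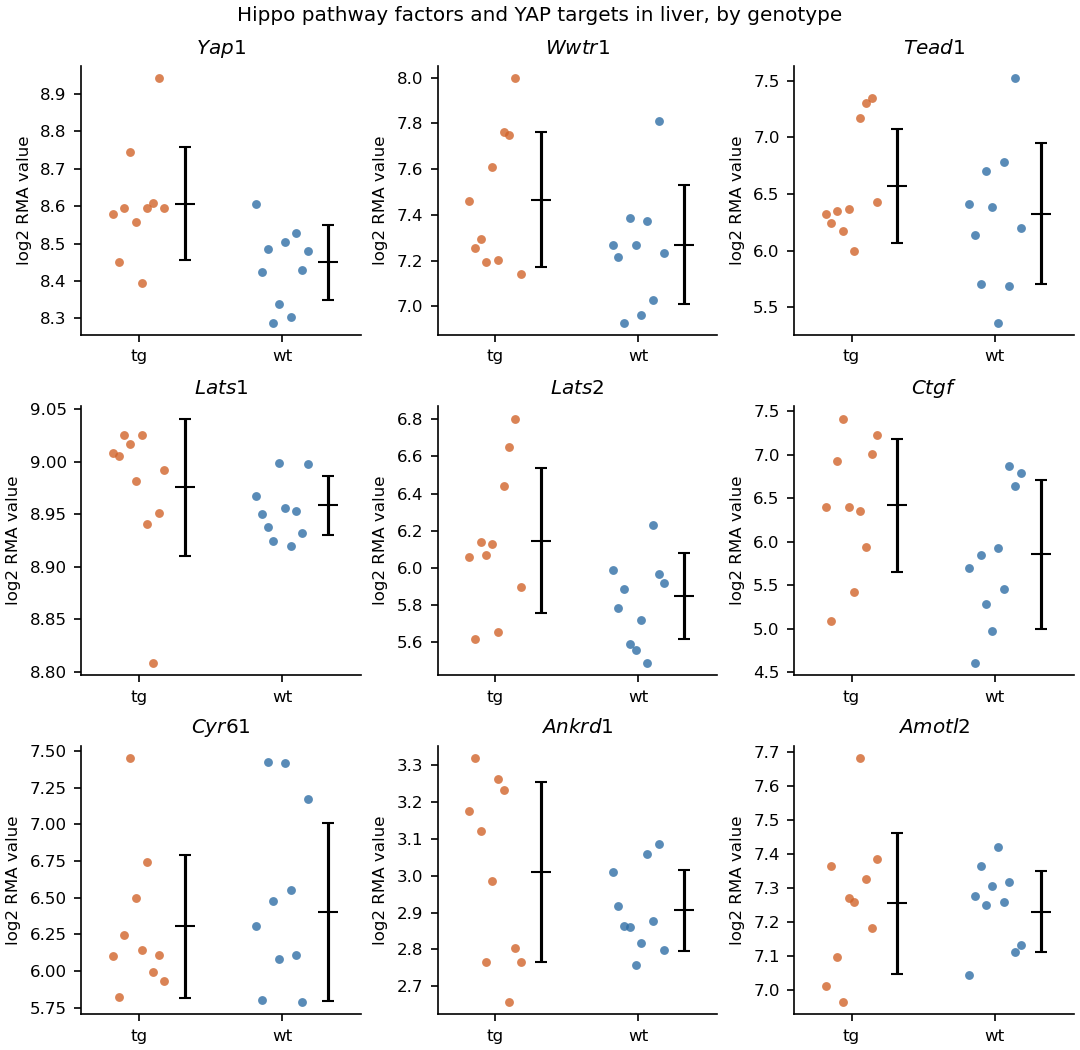
Log2 RMA values of the 9 genes in livers of tg (left, 10 arrays) and wt mice (right, 10 arrays), 1 point per array and 1 probe set per gene. Black bars are mean ± SD, with near-identical wt arrays counted once (n = 8), and the points of both genotypes overlap in every panel.

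*Lats1*, one of the final kinases of the cascade, ranged from 8.81 over a median of 9.0 to 9.03 in tg arrays, and from 8.92 over 8.95 to 9.0 in wt profiles. The values lay close together in both genotypes except for tg_1423_2-8_1, which was lowest. The log2 fold change was 0.02 (SE 0.0339, 95% interval -0.05 to 0.09, limma adjusted p = 0.756). *Lats2*, the second of these kinases and itself induced by YAP in feedback, had 5.62, 6.10 and 6.80 as lowest, median and highest value in tg arrays, and 5.54, 5.86 and 6.23 in wt profiles. 3 tg arrays exceeded all wt profiles. The difference was 0.33 (SE 0.133, limma adjusted p = 0.165, exact permutation p = 0.0781 over 10 tg arrays and 8 wt profiles). The *Lats2* probe set next in signal gave 0.30 (limma adjusted p = 0.154) and the one after it -0.0028, with 3 more under the median signal between -0.08 and 0.08. The probe sets of *Lats2* thus did not all move alike. Without tg_1386_9, the probe set next in signal passed with 0.37 (limma adjusted p = 0.0396).

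*Yap1*, the central coactivator, had a lowest, median and highest value of 8.40, 8.59 and 8.94 in tg arrays and of 8.30, 8.46 and 8.60 in wt profiles. 8 of 10 tg arrays lay above the wt median, 3 of them above all wt profiles. The log2 fold change was 0.17 (SE 0.0592, limma adjusted p = 0.115), and the second probe set gave 0.20 (limma adjusted p = 0.246). The exact permutation test of this single gene gave p = 0.0172 (two-sided, n = 10 and 8), which does not account for the other genes on the array. Within the 6 shared numbers *Yap1* was higher in tg livers in 5, from -0.02 to 0.30. *Wwtr1*, which encodes TAZ, had 7.14, 7.38 and 8.00 in tg arrays and 6.94, 7.25 and 7.81 in wt profiles, again lowest, median and highest. Both genotypes covered much the same span. Its 3 probe sets gave log2 fold changes of 0.22, 0.14 and 0.30 (limma adjusted p = 0.293, 0.450 and 0.206).

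*Tead1*, the transcription factor that carries YAP and TAZ to DNA, was as variable in wt as in tg livers. Its lowest, median and highest values were 6.0, 6.36 and 7.35 in tg arrays and 5.53, 6.29 and 7.52 in wt profiles. No tg array exceeded the highest wt profile, wt_1423_2-8_9. The log2 fold change was 0.28 (SE 0.234, 95% interval -0.21 to 0.77, limma adjusted p = 0.521), and it was -0.02 without the 3 arrays that stood apart. The other *Tead1* probe set had a weak signal in both genotypes.

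Among the targets, *Ctgf*, a secreted matricellular protein and classical YAP target, had the largest difference of the 9 genes and also the widest spread. It had 5.08, 6.40 and 7.41 as lowest, median and highest value in tg arrays and 4.61, 5.79 and 6.87 in wt profiles. 4 tg arrays exceeded all wt profiles, while the lowest values of both genotypes came from the arrays tg_1386_9 and wt_1386_4. The mean ± SD was 6.42 ± 0.77 for tg livers (n = 10) against 5.85 ± 0.86 for wt livers (n = 8), and the log2 difference was 0.61 (SE 0.315, 95% interval -0.05 to 1.27, limma adjusted p = 0.279). The exact permutation test gave p = 0.158 (two-sided, n = 10 and 8). Within the shared numbers *Ctgf* was higher in tg livers in 5 of 6, by 0.43 to 1.60, and lower by 0.28 (log2) in the number of tg_1423_2-8_1 and wt_1423_2-8_3. With the number in the fit, the limma adjusted p was 0.0972. Both near-identical wt pairs have one array in the number of tg_1407_9 and one in that of tg_1420_4, so wt values of those numbers are not independent in any count over the 6.

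**Figure D2:**
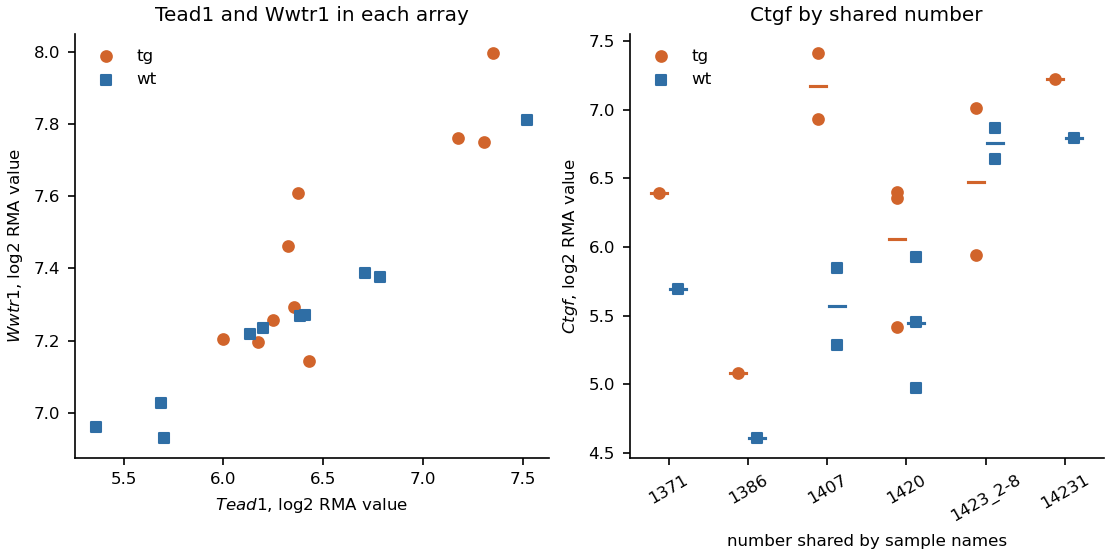
Left, log2 RMA values of *Wwtr1* against *Tead1*, 1 point per array (10 tg, 10 wt), with a Pearson r of 0.88 in tg arrays and 0.990 over 8 wt profiles. Right, *Ctgf* by the number that sample names share, tg left of wt, with short lines at the means. Tg lies above wt in 5 of 6 numbers.

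*Cyr61*, a matricellular relative of *Ctgf*, had a negative difference. Its strongest probe set had 5.82, 6.13 and 7.45 as lowest, median and highest value in tg arrays and 5.79, 6.21 and 7.42 in wt profiles. The highest tg value, in tg_1407_9, lay just above the highest wt value, and 7 of the other 9 tg arrays were at or under 6.25. The log2 fold change was -0.21 (SE 0.230, limma adjusted p = 0.642), and it was lower in tg livers in 4 of 6 shared numbers. It was -0.34 without tg_1407_9, -0.096 with near-identical wt arrays averaged and -0.11 without wt_1407_2 or wt_1420_6. All 4 probe sets had a negative difference, from -0.42 to -0.13. The largest of these belongs to a probe set under the median signal, with 2.98, 3.69 and 4.19 in tg arrays and 3.48, 3.85 and 4.71 in wt profiles. Only 2 of 10 tg arrays lay above the wt median, and tg livers were lower in 5 of 6 shared numbers. Its limma adjusted p was 0.142, against 0.0146 with the shared number in the fit, so that it was the only probe set of the 9 genes called there. With near-identical wt arrays averaged, the difference was -0.35 (limma adjusted p = 0.272).

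*Ankrd1*, a nuclear ankyrin repeat protein that responds to YAP, had a weak signal in both probe sets. Its stronger one had 2.66, 3.05 and 3.32 in tg arrays and 2.76, 2.90 and 3.09 in wt profiles, all under the median of the array, so that a change in level could not be read from it. The log2 fold change was 0.10 (SE 0.0821, limma adjusted p = 0.497). *Amotl2*, a junctional scaffold that YAP induces and that in turn binds YAP, had 6.96, 7.26 and 7.68 in tg arrays and 7.04, 7.27 and 7.39 in wt profiles. The medians were nearly equal, and 5 of 10 tg arrays lay above that of wt. The log2 fold change was 0.01 (SE 0.0744, 95% interval -0.15 to 0.16, limma adjusted p = 0.977). The 4 targets thus had differences of 0.61, -0.21, 0.10 and 0.01, of which none passed the test.

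**Figure D3:**
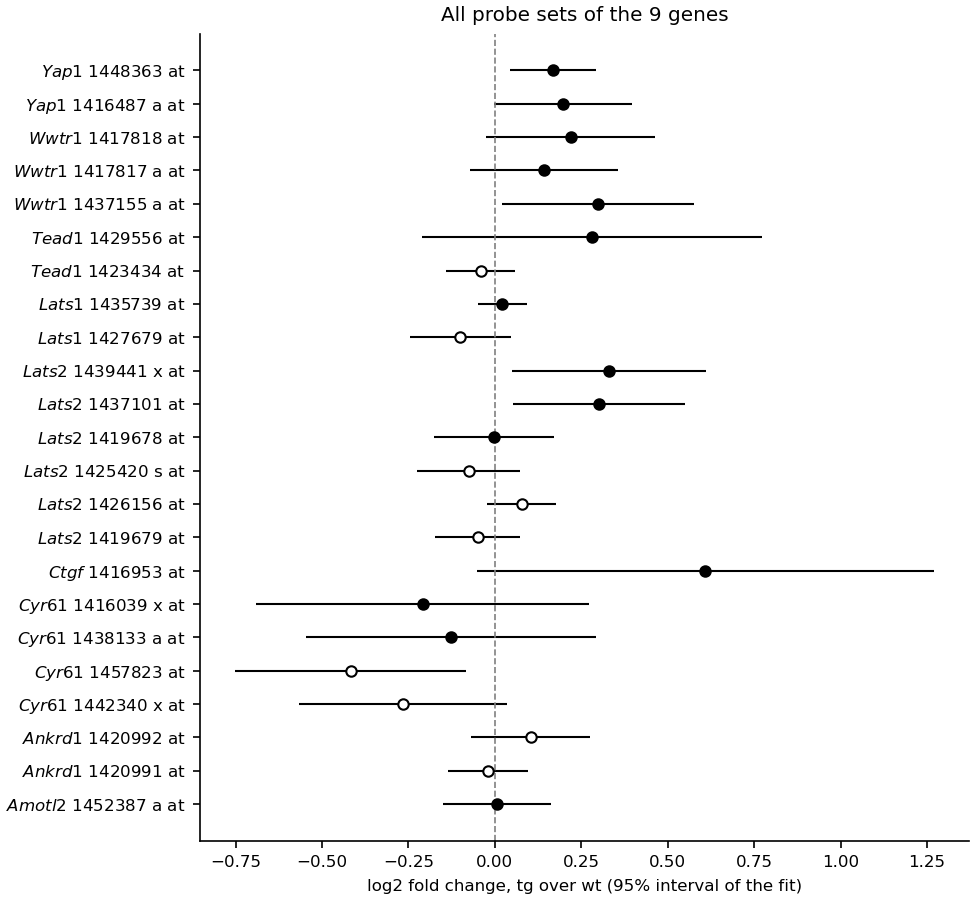
Log2 fold change of tg over wt livers for all 23 probe sets of the 9 genes. Bars are 95% intervals from the limma SE and 18 degrees of freedom. Filled points are the 14 probe sets with a mean above 4.53 and open points those under it. No probe set passed after adjustment over all probe sets.

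Whether the RNAs of the 9 genes follow the progenitor markers was read within the 10 tg livers, by regressing each probe set on the mean of the 6 progenitor markers in limma. 2 of the 23 probe sets had a slope past the threshold, against a background of 10.4%, or 4678 probe sets. They belong to *Tead1*, with a slope of 0.40 log2 units per unit (SE 0.102, limma adjusted p = 0.0292), and *Lats2*, with 0.31 (SE 0.0830, limma adjusted p = 0.0380). *Wwtr1* had 0.22 (limma adjusted p = 0.0595), and *Yap1* 0.06 (limma adjusted p = 0.539). None of the probe sets of the 4 targets passed, with slopes of -0.03 for *Ctgf*, 0.10 for *Cyr61*, -0.02 for *Ankrd1* and 0.07 for *Amotl2*.

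The slopes rested on the 3 arrays that stood apart. *Tead1* was 7.18 to 7.35 in these 3, 6.0 to 6.43 in the other 7 tg arrays and 5.36 to 7.52 in wt arrays. *Lats2* was 6.44 to 6.80 in the 3, 5.62 to 6.14 in the other 7 and 5.49 to 6.23 in wt arrays. *Wwtr1* was 7.75 to 8.00, 7.14 to 7.61 and 6.93 to 7.81 in the same order. For *Ctgf*, *Cyr61*, *Ankrd1* and *Amotl2* the values of the 3 arrays overlapped those of the other 7. In the other 7 tg arrays, 0 of 23 probe sets had a slope past the adjusted threshold in limma, where 1 of all probe sets (0.00222%) passed, and *Tead1* had a slope of -0.13. At an unadjusted p under 0.05, 0 of 23 passed there, against 7.96% of all probe sets. In wt livers 0 of 23 passed after adjustment in limma, as did 0 of all probe sets, and at an unadjusted p under 0.05 it was 0 of 23 against 3.92% of all. Leaving out single tg arrays, the call of *Tead1* was lost without tg_1371_2, tg_1386_9, tg_1420_4, tg_1423_2-8_1 or tg_1423_2-8_4 (limma adjusted p of 0.0508 to 0.102), and that of *Lats2* without any of these or tg_1407_9 (0.0512 to 0.117).

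**Figure D4:**
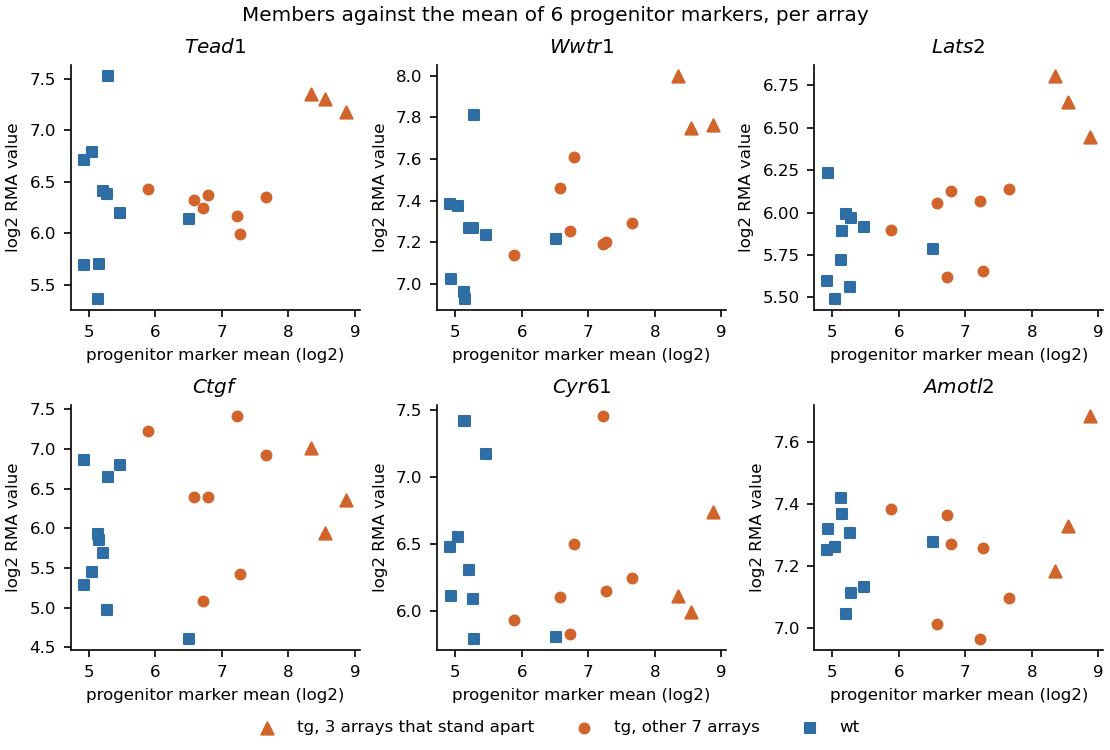
Log2 RMA values of 6 of the 9 genes against the mean of 6 progenitor markers, 1 point per array. Triangles are tg_1420_4, tg_1423_2-8_1 and tg_1423_2-8_4, circles the other 7 tg arrays and squares the 10 wt arrays. *Tead1*, *Wwtr1* and *Lats2* are higher in the triangles than in the circles, and the targets in the lower row overlap.

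Over the 10 tg arrays, the Pearson correlation with the progenitor marker mean was 0.76 for *Tead1* (permutation p = 0.0111), with a Spearman rho of 0.45 (permutation p = 0.191). It was 0.75 for *Lats2* (permutation p = 0.0129, rho 0.76) and 0.72 for *Wwtr1* (permutation p = 0.0218, rho 0.67). Without the 2 arrays farthest from the median of the markers, r was 0.83, 0.79 and 0.61 for *Tead1*, *Lats2* and *Wwtr1*. Since the 3 arrays form a cluster of their own, r was also taken in the other 7, where it was -0.51 for *Tead1*, 0.17 for *Lats2* and 0.01 for *Wwtr1* (exact permutation p = 0.252, 0.700 and 0.971). The targets had r of -0.04 for *Ctgf*, 0.20 for *Cyr61*, -0.09 for *Ankrd1* and 0.32 for *Amotl2* in the 10 tg arrays (permutation p of 0.371 to 0.904). These are 9 relations in each set of arrays, and their permutation p values were not adjusted for that number. The limma adjusted p values of the slopes above count all probe sets.

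Other values were set beside the 3 arrays, and not all of them set the 3 apart. The clock output gene *Dbp* was 9.36 and 10.05 in tg_1423_2-8_1 and tg_1423_2-8_4, 5.86 in tg_1420_4 and 4.73 to 5.35 in the other 7 tg arrays. In wt livers it was 11.07 in wt_1423_2-8_3 and 10.98 in wt_1423_2-8_9, the arrays with the same number, and 5.13 to 6.06 in the others. Of these 2 wt arrays, *Tead1* was 7.52 in wt_1423_2-8_9 and 5.69 in wt_1423_2-8_3. The mean of 9 stellate cell markers was 7.88 to 8.42 in the 3 arrays, 7.70 to 8.08 in the other 7 and 7.64 to 8.04 in wt arrays. The 3′ minus 5′ difference of the actin control was 1.39 to 1.51, 1.08 to 1.41 and 0.95 to 1.64 in the same order. In both measures these ranges overlapped. The part of these values in the slopes was not tested.

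The members also varied with each other. Of 72 relations between pairs of genes, 36 in each genotype, 5 passed after Benjamini-Hochberg adjustment over the 72. In wt livers this was *Wwtr1* with *Tead1*, with r of 0.990 and rho of 1 over 8 profiles (exact permutation p = 2.48e-05, the smallest possible, adjusted 0.00179), and r of 0.987 without the 2 farthest profiles. Wt profiles with high *Tead1* were also high in *Wwtr1*, in the same order from lowest to highest. In tg livers r was 0.88 (permutation p = 0.00111, adjusted 0.0200, rho 0.71), but 0.35 in the 7 arrays beside the 3 that stood apart (exact permutation p = 0.441). The other 2 *Wwtr1* probe sets had r of 0.59 and 0.75 with *Tead1* in wt profiles. Among 11774 genes above the median signal, *Wwtr1* ranked 1 in likeness to *Tead1* in wt profiles, where 0.603% of genes had r over 0.9. In tg arrays it ranked 654, and 4.06% of genes had r over 0.9 with *Tead1*. The share of pairs among all genes that would pass was not computed. The pair of *Wwtr1* and *Tead1* was singled out after its values were seen.

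The remaining 3 relations were within tg livers, *Tead1* with *Lats2* (r 0.91, permutation p = 5.40e-04, adjusted 0.0132), *Wwtr1* with *Lats2* (r 0.88, permutation p = 5.50e-04, adjusted 0.0132) and *Tead1* with *Lats1* (r -0.81, permutation p = 0.00151, adjusted 0.0217). In wt profiles r was -0.20, -0.12 and -0.28 for these pairs. The 3 arrays that stood apart lay outside the range of the other 7 tg arrays in all 4 of these genes, and in the other 7 r was 0.55, 0.50 and -0.63 (exact permutation p = 0.202, 0.236 and 0.126). No pair of targets passed in either genotype, and *Ctgf* with *Cyr61* had r of 0.49 in tg arrays and 0.27 in wt profiles (permutation p = 0.155 and exact permutation p = 0.509). *Yap1* with *Ctgf* had r of 0.72 in tg arrays (permutation p = 0.0168, adjusted 0.134) and 0.46 in wt profiles.

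Genes most like single members over the 18 profiles, with genotype means removed, were ranked for all 9 and are named for *Yap1* and the 4 targets. Of the other 4 members, *Wwtr1* and *Tead1* had each other as the gene most alike (r 0.92), and for *Lats1* and *Lats2* the highest r was 0.90 and 0.96. *Ctgf* was most like *Cebpd*, a stress-responsive transcription factor (r 0.92), *Slc38a2*, an amino acid transporter (0.89), and *Ass1*, an enzyme of the urea cycle (0.86). *Cyr61* was most like *Rnd1*, a small GTPase (0.75), *Nr4a1*, an immediate early nuclear receptor (0.74), and *Neu2* (0.74). *Yap1* was closest to *Phf2*, *Vps11* and *Ralgapb* (0.85 each), *Amotl2* to *Tspan13*, *Defa31* and *Postn* (0.81, 0.78 and 0.75), and *Ankrd1* to *Mmp17*, *Ctu2* and *Timmdc1* (0.76, 0.76 and 0.75).

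The surrounding pathway was read from lists of genes, 1 probe set per gene, where 3.95% of all 18194 genes passed, 2.98% as higher and 0.967% as lower in tg livers. With the shared number in the fit, 7 genes of these lists passed outside the progenitor markers, where 7.27% of all genes passed. By list, 2 of 15 genes of the kinase cassette, 2 of 11 regulators and junction partners and 3 of 19 further YAP targets passed. Of the other TEAD genes, Notch genes and immediate early genes 0 of 3, 0 of 6 and 0 of 12 passed there. Of 15 measured genes of the kinase cassette and its upstream regulators, 1 was higher in tg livers and 0 lower, with a median difference of 0.05. It was *Stk4*, the MST1 kinase at the top of the cascade, with 8.29 ± 0.14 for tg livers (n = 10) against 8.05 ± 0.06 for wt livers (n = 8). The log2 difference was 0.23 (SE 0.0527, limma adjusted p = 0.0270), and all 10 tg arrays lay above all wt profiles. *Wwc2*, a scaffold of the LATS kinases, had 0.26, *Taok1*, an upstream kinase, 0.20, and *Sav1*, a scaffold of MST, -0.19, none of which passed.

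Of 11 measured regulators and junction partners of YAP and TAZ, a list that holds proteins which restrain YAP and LIM proteins which inhibit the LATS kinases and so favour YAP, 1 was higher and 0 lower, with a median of 0.19. *Amot*, a relative of *Amotl2* that holds YAP at junctions, had 7.95 ± 0.54 for tg against 7.28 ± 0.13 for wt livers, a difference of 0.67 (SE 0.164, limma adjusted p = 0.0344), with 8 of 10 tg arrays above all wt profiles. *Ajuba*, a LIM protein that inhibits LATS kinases, had 0.74 (SE 0.261, limma adjusted p = 0.116), *Wtip*, its relative, 0.40, and *Ctnna1*, a junction protein, 0.22. On the progenitor marker mean, 5 of these 11 genes had a positive slope in tg livers, *Amot*, *Limd1*, *Ajuba*, *Wtip* and *Tjp1*, and 0 a negative one, where 9.17% of all genes were positive and 5.11% negative (14.3% in either direction). *Limd1*, *Ajuba* and *Wtip* are the LIM proteins among them. In the kinase list 4 of 15 had a positive slope, *Stk4*, *Nf2*, *Wwc1* and *Wwc2*, and 1 a negative one, *Dchs1*. Of the 19 further YAP targets, *Gadd45a* (1.07 log2 units per unit, limma adjusted p = 0.00534) and *Nt5e* (0.67, limma adjusted p = 0.00638) had a positive slope and *Crim1* a negative one (-0.42, limma adjusted p = 0.0202). Of the Notch genes *Notch2* had a positive slope, and of the immediate early genes *Atf3* and *Ier3* a positive and *Srf* a negative one. All these slopes are of the 10 tg arrays, with the 3 that stood apart among them. In the other 7 tg arrays 1 of all 45101 probe sets had a slope past the threshold, and in wt profiles 0 did. None of the other TEAD genes passed between genotypes or for the slope in the 10 tg arrays. *Tead2*, *Tead3* and *Tead4* had differences of 0.16, -0.06 and 0.0036.

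Of 19 measured further YAP targets, taken from human tumour signatures, 1 was higher and 0 lower, with a median of 0.02. It was *Axl*, a receptor tyrosine kinase, with 5.60 ± 0.35 in tg and 4.91 ± 0.28 in wt livers (0.69, SE 0.131, limma adjusted p = 0.00960). *Nt5e*, an ectoenzyme that makes adenosine, had 0.61, *Gadd45a*, a stress protein, -0.33, and *Crim1* -0.32. Beside *Axl*, which macrophages also express, 4 of 6 macrophage markers passed as higher in tg livers, and their mean was 7.59 to 8.26 in tg and 7.26 to 7.84 in wt arrays. Their part in *Axl* was not tested, and in bulk liver more cells of a type and more RNA per cell cannot be told apart. The calls of *Stk4* and *Amot* were lost with near-identical wt arrays averaged (differences of 0.24 and 0.67, limma adjusted p = 0.0625 and 0.0870). Without the 3 arrays that stood apart all 3 calls were lost, with differences of 0.15, 0.36 and 0.60 for *Stk4*, *Amot* and *Axl* (limma adjusted p = 0.127, 0.0817 and 0.0848). The call of *Stk4* was also lost without tg_1423_2-8_1 or tg_1423_2-8_4. That of *Amot* was lost in 9 of 20 fits that left out 1 array, without tg_1420_4, tg_1423_2-8_1, tg_1423_2-8_4, wt_1407_2, wt_1420_1, wt_1420_6, wt_1423_2-8_3, wt_1423_2-8_9 or wt_14231_2 (limma adjusted p of 0.0510 to 0.0660), and that of *Axl* in none. With all probe sets of a gene averaged, the differences were 0.07 for *Stk4*, 0.16 for *Amot* and 0.38 for *Axl*.

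**Figure D5:**
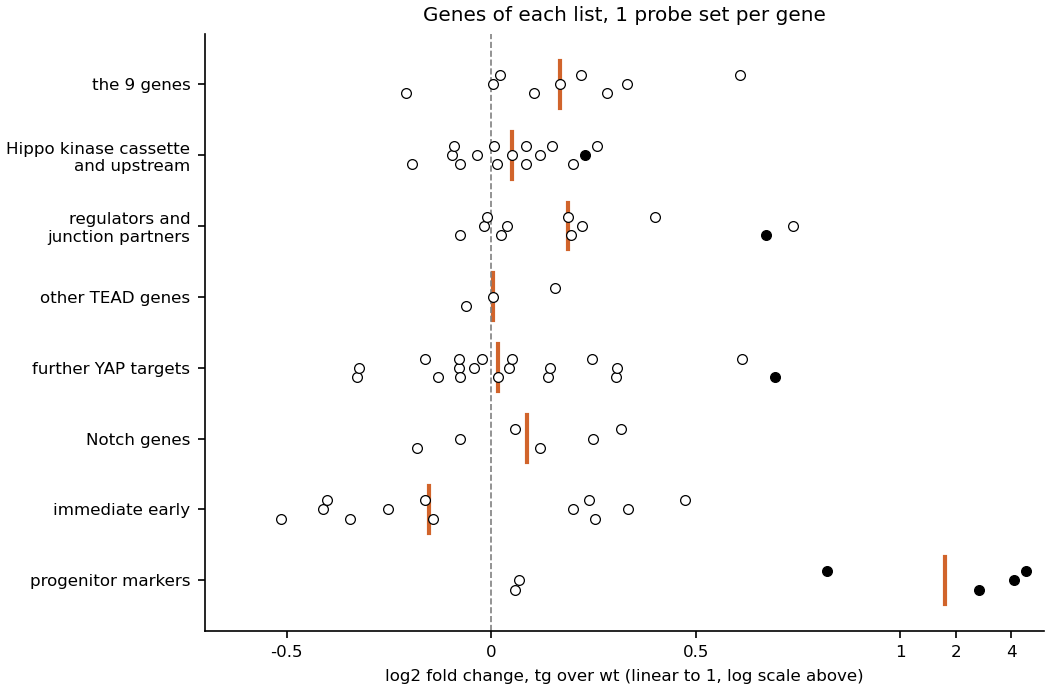
Log2 fold change of tg over wt livers for the 9 genes and for each list, 1 point per gene, with filled points for genes past the threshold in limma and orange lines at the median. The horizontal axis is linear to 1 and logarithmic above it. *Stk4*, *Amot* and *Axl* are the filled points outside the progenitor markers.

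Notch genes that lie downstream of YAP in mouse liver gave 0 of 6 past the threshold, with 0.32 for the receptor *Notch2*, 0.25 for its ligand *Jag1*, -0.18 for the target *Hes1* and 0.12 for *Notch1*. Immediate early genes, which share fast induction with *Ctgf* and *Cyr61*, gave 0 of 12, with a median of -0.15, and *Egr1*, *Jun*, *Dusp1* and *Ier2* had -0.51, 0.47, -0.41 and -0.40. At an unadjusted p under 0.05, 1 of 6 Notch genes and 4 of 12 immediate early genes passed, as did 3 of 15 genes of the kinase cassette, 5 of 11 regulators and junction partners, 0 of 3 other TEAD genes and 5 of 19 further targets, against 25.2% of all genes. Of the 6 progenitor markers, 4 were higher in tg livers, with a median of 1.74 over the 6, where the further YAP targets had 0.02. *Sox9* and *Epcam* did not pass, with 0.06 and 0.07 (limma adjusted p = 0.897 and 0.667), and *Epcam* had a weak signal. The paper reports *Epcam*, unlike *Sox9*, as raised on its arrays, and does not name the probe set it used. The slopes of *Sox9* and *Epcam* on the marker mean were 0.00089 and 0.05, where *Afp*, *Prom1*, *Bex1* and *Cdh1* had 2.00, 1.95, 1.57 and 0.44. Each marker is itself part of that mean. *Spp1*, which the paper also shows on its arrays, is not in this list. With near-identical wt arrays averaged, 2 of the 6 passed. The progenitor list was chosen on these livers and is no independent evidence of its direction. Endothelial, cholangiocyte and stellate cell markers gave 1 of 8, 1 of 6 and 0 of 9 higher, hepatocyte, mesothelial and lymphocyte markers 0 of 6, 0 of 4 and 0 of 5, and 0 lower in all of them.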

How the data were processed

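By the labels, liver RNA was hybridized to 1 array per mouse (10 *IMP2-2* tg, 10 wt). The authors scanned the arrays and normalized them by RMA, and their deposited log2 values of 45101 probe sets in 20 arrays were used unchanged. No version of RMA was given in the sources used. Array medians were 4.46 to 4.53 in tg and 4.50 to 4.55 in wt arrays, and the number of mice limits precision. By the annotation of the array, 34958 probe sets carried 1 symbol, 932 several and 9211 none. Start sites and promoters come from RefSeq tables of GRCm38.p6, in which all 9 genes were found.

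R 4.3.3 with limma 3.58.1 fitted genotype to all 20 arrays, with Benjamini-Hochberg adjustment over all probe sets and 0.05 as the threshold. The same functions fitted the slope on the progenitor marker mean in 10 tg arrays. Python 3.11.15 with numpy 2.4.6 and scipy 1.17.1 ran exact permutation tests over 43758 splits and, for 10 arrays, 100000 permutations, all two-sided. The probe set with the highest mean stands for a gene. The functions were tested on simulated data. The 9 genes and all lists were chosen with earlier results of these data known. Named were the 9 genes, of each list the genes past the threshold and, under 4, those with the largest difference up to 4, and for 5 members the 3 genes most alike among genes above the median signal. Genes named for their slope, *Dbp* and the pair of *Tead1* and *Wwtr1* were named after their values were seen.

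The near-identical wt pairs differed with an SD of 0.168 and 0.172 (log2, all probe sets), other wt pairs with 0.228 to 0.401, and tg_1386_9 from wt_1386_4 with 0.155. Sample names carry 6 numbers that occur in both genotypes, with no meaning given in the sources used here. After genotype means were removed, arrays of the same number correlated across genotypes with r of 0.184 to 0.404, above 0.1 in all 6. For the number of tg_1371_2 another number gave a higher r. The r of 0.382 for the number of tg_1386_9 comes from the close arrays tg_1386_9 and wt_1386_4. The main fit and the permutation tests did not use the number. A fit with it as a term is given beside them where it changes a call. Alternatives were the number as a term or random block, averaged wt pairs, groups of arrays or single arrays left out, other normalization, a filter on weak signals, other empirical Bayes settings, the *Xist* signal as a covariate, array weights, other choices of probe set, the 4 strongest progenitor markers and wt or all arrays for the slope. 0 columns were left without a sample.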

Additional observations from a re-analysis of the deposited data

Results flagged for a closer look

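3 of 46 groups of arrays of the members held an array far from the others by Dixon's criterion, where chance alone gives about 1 in 20. The lowest tg value of *Lats1* was 8.81 in tg_1423_2-8_1, with the next at 8.94. The highest tg value of *Cyr61* in its probe set of second highest signal was 5.88 in tg_1407_9, with the next at 5.30. The highest wt value of *Wwtr1* in its probe set of lowest signal was 5.38 in wt_1423_2-8_9, with the next at 4.72.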

How the results depend on the processing

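With the shared number as a replicate block, 2241 probe sets passed between genotypes, and 1791 with it as a random block, against 1149 without it. Near-identical wt arrays averaged gave 276, leaving out tg_1420_4, tg_1423_2-8_1 and tg_1423_2-8_4 gave 166, leaving out the 4 arrays of the number of tg_1423_2-8_1 gave 74, array weights gave 762, and leaving out single arrays gave 463 to 2460. The split into 850 higher and 299 lower was 682 and 476 with quantile normalization repeated, and 969 and 156 after each array was centred on its median. Of the 23 probe sets, 1 passed with the replicate block (a *Cyr61* probe set) and 0 to 1 when single arrays were left out, and 0 under the other alternatives. Genes called in the lists were counted here without the progenitor markers and the immediate early genes. They numbered 3, against 7 with the replicate block (*Stk4*, *Taok1*, *Amot*, *Wtip*, *Axl*, *Ccdc80* and *Dock5*). The number was 1 with wt arrays averaged, 0 without the 3 arrays and 0 without those 4 arrays. It was 1 to 5 when single arrays were left out (5 without tg_1386_9, 1 without tg_1423_2-8_1 or tg_1423_2-8_4). The replicate block changed no other call of the 9 genes. The sign turned for *Amotl2* without tg_1386_9 and wt_1386_4 (-0.0038), without the 3 arrays (-0.056), without the arrays of the number of tg_1423_2-8_1 (-0.0032), with quantile normalization (-0.068), with array weights (-0.040) and when single arrays were left out (-0.042 to 0.038), for *Tead1* without the 3 arrays (-0.020), and for *Lats1* with quantile normalization (-0.028) and with its probe sets averaged (-0.039). Slopes were called for 2 of the 23 probe sets, against 0 without the 3 arrays and 0 in wt livers. It was 0 over all 20 arrays with genotype as a term and 0 to 3 when single tg arrays were left out. Of all 45101 probe sets, 4678 had a slope past the threshold, against 1 without the 3 arrays and 0 in wt livers. The count was 2303 to 4952 when single tg arrays were left out, and 0 to 5216 over the 8 alternatives of other kinds. The slope of *Tead1* turned to -0.13 without the 3 arrays and -0.030 in wt livers, and that of *Lats2* to -0.063 in wt livers. The cause was not tested, although leaving out arrays also leaves fewer samples. Weak signals limit *Ankrd1* and 9 of the 23 probe sets in all.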
